A study of Homo sapiens with 12 samples.

Results

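The 46 genes described here replicate DNA or supply its deoxynucleotides. They were taken by symbol from a count table of 25370 genes, and all 46 were found there, with between 127 counts (GINS3) and 5275 counts (MCM4) in a library. They fell into 6 subgroups, namely 7 MCM genes, 13 origin genes, 9 polymerase and primase genes, 9 genes of the clamp, its loader and RPA, 4 genes of flap and primer removal and ligation, and 4 genes of nucleotide supply. RNA-seq had been performed in T47D cells, a human breast carcinoma line that carries the estrogen receptor and was the only line used. The 4 groups held 3 libraries each, lettered a, b and c. Cells had received vehicle, 10 nM anastrozole, 0.1 nM E2 or both agents at those doses (the combination). Anastrozole blocks aromatase, the enzyme that makes estrogens from androgens, without being a steroid, and E2 is 17β-estradiol. The paper describes anastrozole as a ligand of the estrogen receptor as well. It states that the doses were picked because anastrozole raised luciferase activity there and left the receptor undegraded. Which action of anastrozole bears on the results here was not tested. Cells of every group, vehicle included, had first spent 48 h with 5% charcoal-stripped serum, which is depleted of steroids, and a further 24 h without serum. The labels give 12 h of treatment, and the methods of the study give a longer time. The paper describes its gene expression data in general as coming from independent experiments, but neither its RNA-seq methods nor the labels say whether the letters stand for separate cultures. If they do not, p-values here measure only technical spread between libraries.

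Replication begins at origins. The origin recognition complex (ORC) binds them, and CDC6 and CDT1 help it to load the ring of MCM2 to MCM7, the motor of the replicative helicase, onto DNA in G1. On entry into S phase CDC45 and the GINS complex join that ring to form the active helicase, with MCM10 needed for its firing. DNA polymerase α with its primase lays primers, polymerase ε extends the leading strand and polymerase δ the lagging strand, both held on DNA by the sliding clamp PCNA, which RFC loads, while RPA coats the exposed single strands. FEN1, DNA2 and RNase H2 remove flaps and primers, and ligase I (LIG1) seals the nicks. Ribonucleotide reductase (RRM1 and RRM2), thymidylate synthase (TYMS) and thymidine kinase 1 (TK1) provide deoxynucleotides. Many of these genes are targets of E2F transcription factors and are transcribed from late G1 into S phase, and estradiol is known to drive estrogen receptor–positive breast cancer cells from G1 into S phase.

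Between 9914253 and 17009776 counts per library fell on genes, and the 46 genes took 0.4005% to 0.425% of them. Values are given as CPM, in which each library is scaled to the same total, after TMM normalization for differences in library composition. On this scale 3 counts, taken as the limit of detection, came to 0.177 to 0.303 CPM, which covers counting error only. Replicates a and c of anastrozole stood apart most, since the chi-square over its degrees of freedom was 4.62 there and 1.27 to 2.56 in all other replicate pairs. The 9 luminal epithelial markers were present in every library (KRT8 at 2259 to 2528 CPM, ESR1 at 163 to 189 CPM). The 4 immune markers reached at most 1.082 CPM, with PTPRC at 0 in 11 of the 12 libraries and LYZ (0.418 to 1.082 CPM) at 0 in none. The 3 endothelial markers reached at most 0.622 CPM, with PECAM1 and CDH5 at 0 in 10 libraries and VWF (0.0715 to 0.622 CPM) at 0 in none. Of 4 fibroblast markers, COL1A1 reached 80.04 to 99.9 CPM while COL3A1 was at 0 in 10 libraries. Summed over its list, the fibroblast markers came to 91.7 to 95.7 CPM with vehicle, 84.8 to 93.1 with anastrozole, 80.11 to 90.8 with E2 and 94.8 to 99.9 with the combination, so that E2 lay below vehicle. This sum was nearly all COL1A1, since COL3A1, DCN and PDGFRB reached at most 0.0778, 0.139 and 0.37 CPM. The luminal markers came to 11090 to 11190 CPM with vehicle, 10130 to 10900 with anastrozole, 10480 to 10730 with E2 and 10740 to 10970 with the combination, all treated libraries below vehicle. KRT19, KRT8 and PGR weighed most in that sum, with medians of 2885, 2355 and 2220 CPM. The ranges of the immune and endothelial sums overlapped between all groups. The part of these differences in the results for the 46 genes was not tested. Changes of expression also moved with the GC content of the exons. Across 10848 genes Spearman's rho was -0.53 in the comparison of anastrozole with vehicle and -0.55 in that of E2. Each comparison is therefore also given with a GC offset, chosen after the data were seen, which removes the trend of each library on GC content together with any true change that follows it. Because whole cultures were measured, fewer cells in S phase and less of an mRNA per cell cannot be told apart.

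Promoter sequences were inspected because many replication genes share E2F control. RefSeq windows of 280 bases (GRCh38.p14, 250 before and 30 from the transcription start) matched 39 of the 46 genes by symbol, all but MCM4, MCM5, GINS4, POLD3, RPA2, RPA3 and DNA2. An E2F motif, searched as TTTCCCGC, TTTCGCGC, TTTGCCGC or TTTGGCGC on both strands, was present in 18 of the 39 windows (46.2%). Among all 35116 RefSeq windows 3.14% held it, and among the 7321 windows of genes expressed at least as highly as the lowest of the 46 genes 5.48% did. The windows with a match were 4 of 5 for MCM genes, 6 of 12 for origin genes, 4 of 8 for polymerases and primase, 2 of 7 for clamp, loader and RPA, 1 of 3 for flap, primer and ligation genes and 1 of 4 for nucleotide supply. CCAAT, the motif bound by NF-Y, was in 59% of the windows, against 33.6% of all windows and 37.2% of those of expressed genes. GGGCGG, the GC box, was in 66.7%, against 44.1% and 71.2%. The full estrogen response element GGTCANNNTGACC was in 0 of 39 windows, 0.0541% of all windows and 0 of the 7321 windows of expressed genes. These are matches of letters and say nothing of binding.

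Shown here are windows of 4 genes lowered with anastrozole, which hold the E2F motif, and of 2 genes raised with E2, which do not. They were picked by both call and motif, so the contrast between them is no result. With anastrozole 4 of 18 genes with the motif and 2 of 21 without it were called lower. With E2 1 of 18 and 5 of 21 were called higher. The call of CDT1 was lost with the GC offset. Capitals mark E2F and CCAAT matches on either strand, which can overlap each other, and the sequences run 5′ to 3′ on the strand of the gene. The windows are chr3:127598161-127598440 (forward strand) for MCM2, chr6:52284713-52284992 (reverse) for MCM3, chr16:88803539-88803818 (forward) for CDT1, chr16:85688925-85689204 (reverse) for GINS2, chr11:4094435-4094714 (forward) for RRM1 and chr2:10122489-10122768 (forward) for RRM2. The motif of CDT1 began at -35 and that of GINS2 at -31 relative to the start.
MCM2: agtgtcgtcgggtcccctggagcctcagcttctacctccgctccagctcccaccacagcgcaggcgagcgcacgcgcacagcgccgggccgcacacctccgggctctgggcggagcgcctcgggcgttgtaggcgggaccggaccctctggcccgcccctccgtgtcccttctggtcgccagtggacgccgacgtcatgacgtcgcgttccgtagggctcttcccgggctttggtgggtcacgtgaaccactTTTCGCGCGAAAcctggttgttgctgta
MCM3: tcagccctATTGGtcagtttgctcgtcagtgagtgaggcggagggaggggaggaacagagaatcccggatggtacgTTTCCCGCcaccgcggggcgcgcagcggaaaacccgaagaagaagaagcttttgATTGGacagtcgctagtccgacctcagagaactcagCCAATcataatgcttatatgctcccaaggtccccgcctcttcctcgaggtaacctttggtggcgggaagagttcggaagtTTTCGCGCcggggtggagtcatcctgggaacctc
CDT1: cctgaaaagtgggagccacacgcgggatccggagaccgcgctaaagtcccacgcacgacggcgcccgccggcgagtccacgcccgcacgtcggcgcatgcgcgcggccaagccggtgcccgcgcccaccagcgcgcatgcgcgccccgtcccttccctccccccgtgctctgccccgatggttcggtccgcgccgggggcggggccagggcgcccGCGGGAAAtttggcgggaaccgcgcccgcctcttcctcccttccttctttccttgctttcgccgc
GINS2: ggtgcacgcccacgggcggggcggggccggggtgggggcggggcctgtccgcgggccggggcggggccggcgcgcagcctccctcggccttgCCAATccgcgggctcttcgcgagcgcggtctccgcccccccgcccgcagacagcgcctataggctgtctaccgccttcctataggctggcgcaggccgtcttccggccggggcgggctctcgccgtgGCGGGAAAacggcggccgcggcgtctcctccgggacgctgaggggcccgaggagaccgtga
RRM1: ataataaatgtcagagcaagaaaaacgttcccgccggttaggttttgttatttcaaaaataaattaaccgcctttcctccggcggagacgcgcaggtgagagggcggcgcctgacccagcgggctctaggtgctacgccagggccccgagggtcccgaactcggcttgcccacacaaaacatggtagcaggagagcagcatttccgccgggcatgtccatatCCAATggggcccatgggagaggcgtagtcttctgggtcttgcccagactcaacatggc
RRM2: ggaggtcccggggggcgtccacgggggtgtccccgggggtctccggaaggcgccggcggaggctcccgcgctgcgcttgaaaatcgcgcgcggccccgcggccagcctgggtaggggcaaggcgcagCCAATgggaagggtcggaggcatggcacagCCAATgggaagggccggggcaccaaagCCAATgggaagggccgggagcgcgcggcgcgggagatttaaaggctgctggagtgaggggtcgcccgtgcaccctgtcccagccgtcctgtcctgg
MCM2 and MCM3 were lower with E2 as well. Among further genes lower with E2, POLE held an E2F match, while the windows of POLD1, RNASEH2A and TK1 did not. FEN1 and TK1, also lowered with anastrozole, held neither motif in their windows. Of the other genes raised with E2 that had a window, RFC3 held an E2F match, beginning at -55, while RFC1, MCM10 and PRIM1 did not. RRM2 held 3 copies of CCAAT and RRM1 held 1.

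In vehicle, the level per length was highest for the clamp and the salvage kinase. Divided by all annotated exon bases of the gene, which can exceed the length of any transcript, PCNA stood at 146 CPM per kb and TK1 at 119. They were followed by FEN1, the flap endonuclease, at 77.3 CPM per kb and MCM3 at 54.4 CPM per kb. RRM1, the large subunit of ribonucleotide reductase, had 44.8 CPM per kb and RFC4, a clamp loader subunit, 40.4. The lowest was the GINS subunit GINS3, at 2.85 CPM per kb. The MCM ring subunits, which work in equal numbers, ranged in mRNA from 4.75 CPM per kb for MCM5 to 54.4 CPM per kb for MCM3. ORC subunits ranged from 4.10 CPM per kb for ORC5 to 13.7 CPM per kb for ORC4.

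**Figure D1:**
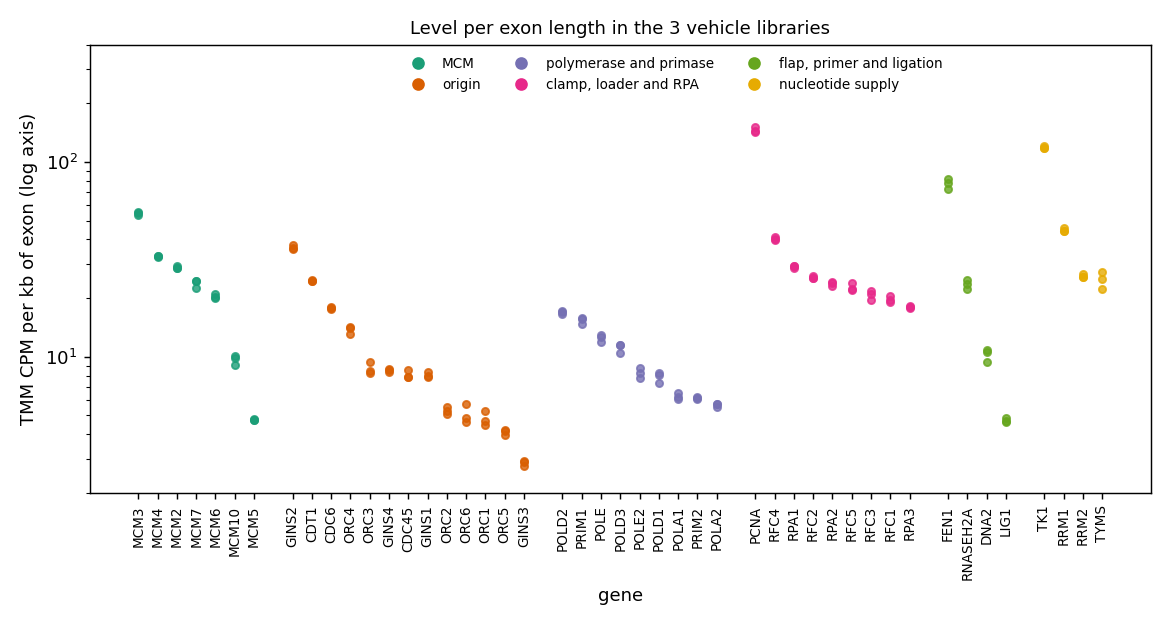
TMM-normalized CPM per kb of annotated exon (log axis) in the 3 vehicle libraries for each of the 46 genes, ordered within subgroups. Each point is a library. PCNA and TK1 lie highest, at 146 and 119 on average, and GINS3 lowest, at 2.85.

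The genes were first summed. Together the 46 came to 4225, 4215 and 4215 CPM with vehicle and to 4059, 4012 and 3997 CPM with anastrozole (libraries a, b and c in this order throughout). They came to 4246, 4207 and 4225 CPM with E2 and to 4182, 4099.8 and 4086 CPM with the combination. The anastrozole libraries therefore lay below all vehicle libraries, the E2 libraries spanned them, and the combination lay between anastrozole and vehicle without overlap with either. As a percentage of the vehicle mean, the sum was 95.4% ± 0.762 (SD, n = 3) with anastrozole, 100.2% ± 0.452 with E2 and 97.7% ± 1.24 with the combination. With the GC trend removed it was 95.7%, 100.2% and 98.0%.

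The subgroups differed in these sums. MCM genes stood at 91.8% ± 0.686 of the vehicle level with anastrozole, 94.5% ± 1.02 with E2 and 94.2% ± 1.03 with the combination, each library below each vehicle library (99.2% to 100.8%). Nucleotide supply genes stood at 96.0% ± 0.909 with anastrozole but at 103% ± 1.32 with E2, and at 99.97% ± 1.05 with the combination. Origin genes stood at 94.4% ± 1.5, 100.9% ± 0.174 and 97.4% ± 1.37 in that order. The flap, primer and ligation genes were at 90.7% ± 2.29, 97.8% ± 1.66 and 95.7% ± 1.31. Polymerase and primase genes came to 96.5% ± 1.66 with anastrozole, and to 100.4% ± 2.80 and 100.6% ± 1.49 in the groups with E2. Clamp, loader and RPA genes came to 100.1% ± 3.23, 103.9% ± 1.42 and 98.6% ± 1.93. With the GC trend removed, the MCM sum was 92.7%, 95.3% and 94.5%, and the nucleotide sum 97.9%, 105% and 100.3%. The sum of origin genes was then 93.6%, 99.4% and 97.5%, and that of polymerase and primase genes 97.3%, 100.9% and 100.9%. Clamp, loader and RPA genes came to 98.6%, 101.6% and 98.6%, and flap, primer and ligation genes to 92.9%, 100% and 96.2%. With E2, origin genes thus moved from above to below the vehicle mean and the flap, primer and ligation genes from below to level with it, and clamp, loader and RPA genes with anastrozole moved from level with it to below it. These sums weigh the genes with many counts most and were not tested.

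**Figure D2:**
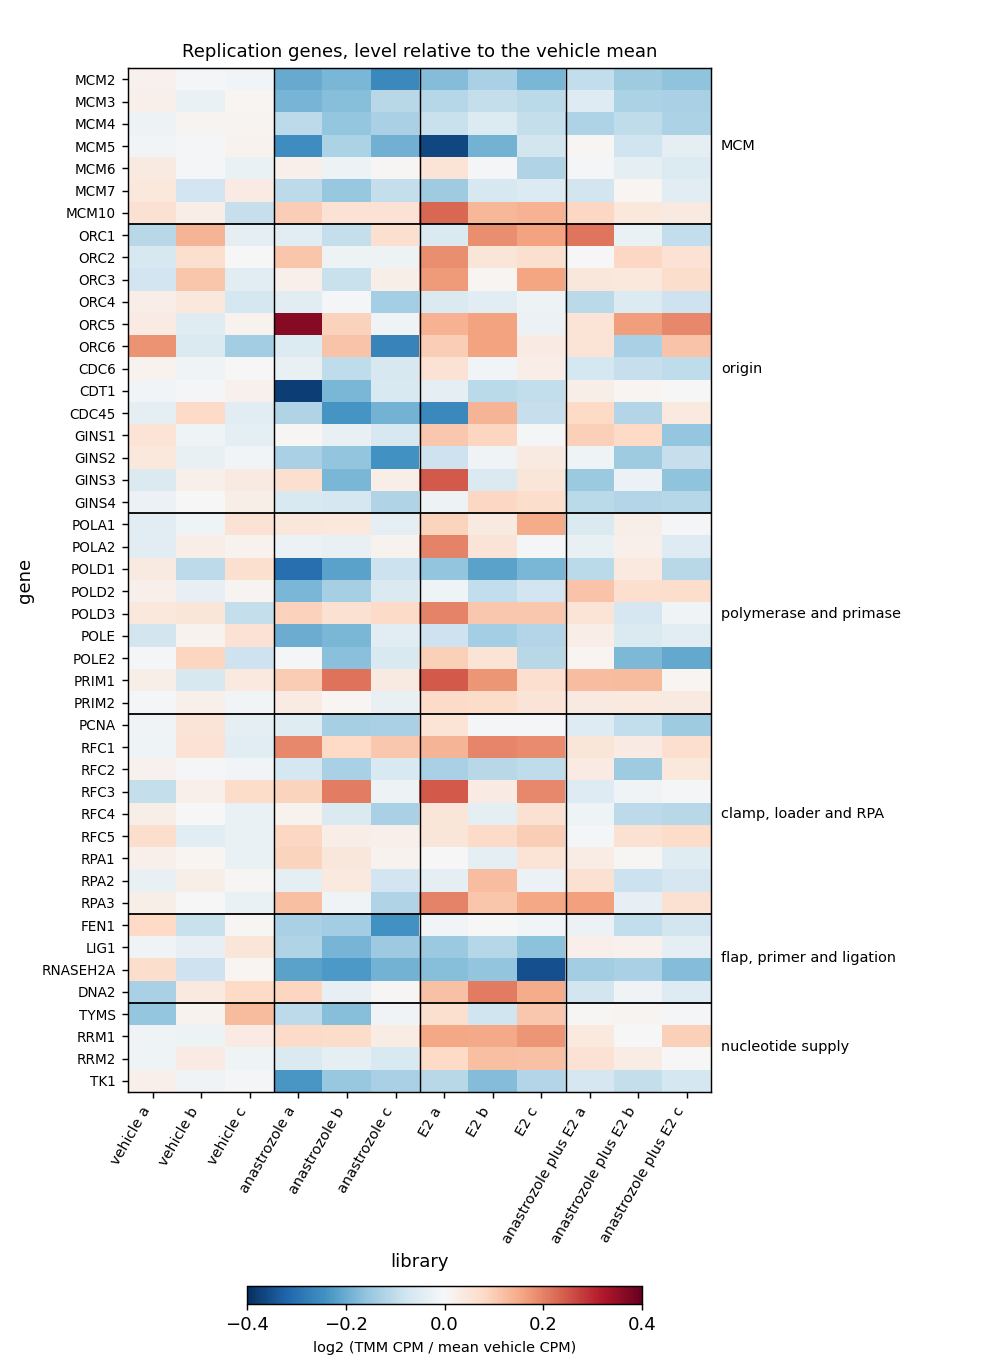
Level of each of the 46 genes in each of the 12 libraries, as log2 of TMM CPM over the mean of the 3 vehicle libraries, with subgroups separated by lines. MCM2, MCM3 and MCM4 are blue in all treated libraries, with MCM10 red, while RRM1 and RFC1 are red in the anastrozole and E2 libraries.

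Among the MCM genes, MCM2 to MCM7 are the helicase ring. MCM2 (chr3:127317253-127341279, GRCh37, forward strand) had 137, 135 and 135 CPM with vehicle, 118, 119 and 113 with anastrozole, 120.2, 124 and 119 with E2 and 127, 123 and 121 with the combination. All treated libraries lay below all vehicle libraries, and those with anastrozole alone were lowest. An opposite-strand long noncoding RNA shares 23.6% of the exon bases of MCM2, and whether counting used the strand is not given in the sources used here. MCM4, the MCM gene with the highest CPM, had 319, 326 and 326 CPM with vehicle, 301, 291 and 296 with anastrozole, 304, 312 and 303 with E2 and 297, 302 and 296 with the combination. Its treated libraries all lay below vehicle too. MCM5 had 34.3, 34.4 and 34.9 CPM with vehicle, 29.1, 31.6 and 30.2 with anastrozole, 26.8, 30.3 and 32.8 with E2 and 34.6, 32.6 and 33.6 with the combination. Both single treatments lay below vehicle without overlap, whereas the combination overlapped it, and E2 a was the lowest library. MCM10, which binds the helicase and is no ring subunit, had 55.2, 53.9 and 49.6 CPM with vehicle, 56.7, 55.1 and 55.1 with anastrozole, 62.0, 58.0 and 58.2 with E2 and 56.0, 54.4 and 54.2 with the combination. Here the E2 libraries lay above all other libraries. MCM3 ranged from 174 to 201 CPM over the libraries, with all treated libraries below vehicle. MCM6 and MCM7 ranged from 77.5 to 87.4 CPM and from 106.6 to 122 CPM.

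Of the origin genes, CDT1, the licensing factor that brings the MCM ring to ORC (chr16:88870197-88875666, forward strand), had 67.3, 67.6 and 68.7 CPM with vehicle, 52.3, 59.8 and 65.0 with anastrozole, 66.1, 63.0 and 63.5 with E2 and 69.0, 68.3 and 67.8 with the combination. Anastrozole a was far below all other libraries, and c was close to vehicle, while the combination overlapped vehicle and exceeded both single treatments. GINS2 (chr16:85709804-85723679, reverse strand), a subunit of the GINS complex, had 121, 115 and 117 CPM with vehicle, 108, 106 and 99.6 with anastrozole, 111, 116 and 121 with E2 and 116, 107 and 111 with the combination. Only with anastrozole alone did it lie below vehicle in all libraries. ORC4, the origin gene with the highest mean CPM, had 124, 126 and 116 CPM with vehicle, 118, 122 and 111 with anastrozole, 117, 119 and 121 with E2 and 113, 118 and 115 with the combination, and every pair of groups overlapped. The other 10 origin genes had group means between 13.5 CPM (GINS3 with the combination) and 96.3 CPM (CDC6, the ATPase of licensing, with E2).

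Among polymerases, POLE, the catalytic subunit of polymerase ε and the most abundant by CPM, had 146, 156 and 160.4 CPM with vehicle, 134, 136 and 149 with anastrozole, 145, 140.2 and 142 with E2 and 157, 148 and 149.8 with the combination. The E2 libraries lay below vehicle, while anastrozole c overlapped it. POLD2 (chr7:44154230-44163957, reverse strand), the accessory subunit of polymerase δ, had 137, 132 and 136 CPM with vehicle, 119, 123 and 129.7 with anastrozole, 134, 126 and 128 with E2 and 146, 142 and 142 with the combination. Its libraries with the combination were above all others, and those with anastrozole alone below all vehicle libraries. POLD1, the catalytic subunit of polymerase δ, had 39.8, 36.0 and 40.5 CPM with vehicle, 31.4, 33.5 and 36.6 with anastrozole, 34.8, 33.4 and 34.2 with E2 and 36.0, 39.9 and 35.9 with the combination. E2 lay below vehicle and anastrozole c overlapped it. PRIM1, the catalytic primase subunit, had 51.6, 48.6 and 52.1 CPM with vehicle, 54.5, 59.0 and 52.1 with anastrozole, 60.2, 57.4 and 53.2 with E2 and 55.3, 55.5 and 51.0 with the combination. The E2 libraries lay above vehicle and all other pairs of groups overlapped. The other 5 genes of this subgroup had group means from 22.3 CPM (POLE2 with the combination) to 104.1 CPM (POLA1 with E2).

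For the clamp and its loader, PCNA had 202, 212 and 199 CPM with vehicle, 197, 186 and 187 with anastrozole, 212, 204 and 204 with E2 and 197, 191 and 185 with the combination. Anastrozole and the combination both lay below vehicle and below E2. RFC1 (chr4:39289076-39367995, reverse strand), the large subunit of the clamp loader, had 131, 138 and 128 CPM with vehicle, 151, 139.7 and 142 with anastrozole, 145, 151 and 151 with E2 and 137, 135 and 139 with the combination. Both single treatments lay above vehicle and above the combination, and the combination overlapped vehicle. RFC3, a small loader subunit, had 55.6, 60.2 and 62.5 CPM with vehicle, 63.3, 68.5 and 58.6 with anastrozole, 70.5, 60.8 and 67.8 with E2 and 57.4, 58.8 and 59.0 with the combination. E2 exceeded the combination in all libraries but overlapped vehicle through E2 b. RFC2, RFC4 and RFC5 had group means of 52.3 to 56.6, 114.6 to 123 and 74.1 to 78.1 CPM. The 3 RPA genes had group means of 158.8 to 164.9 CPM (RPA1), 45.96 to 47.6 CPM (RPA2) and 58.2 to 64.8 CPM (RPA3).

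Among genes of flap and primer removal and ligation, FEN1 (chr11:61560383-61564710, forward strand) had 179.7, 159.6 and 170.4 CPM with vehicle, 155, 154 and 144 with anastrozole, 169, 169.7 and 168 with E2 and 167, 159 and 162 with the combination. Anastrozole alone lay below each other group. LIG1 had 52.8, 52.2 and 55.2 CPM with vehicle, 49.1, 46.9 and 48.3 with anastrozole, 48.2, 49.3 and 47.6 with E2 and 54.2, 54.0 and 52.0 with the combination. Both single treatments lay below vehicle and below the combination, which overlapped vehicle. RNASEH2A, the catalytic subunit of RNase H2, had 50.7, 45.6 and 48.6 CPM with vehicle, 41.6, 41.2 and 42.4 with anastrozole, 43.0, 43.3 and 37.8 with E2 and 43.9, 44.1 and 42.8 with the combination. All treated libraries lay below all vehicle libraries. THSD8 shares 53.3% of its exon bases on the same strand, so its counts are uncertain. DNA2, a nuclease and helicase, had 46.2, 51.9 and 53.4 CPM with vehicle, 53.6, 49.3 and 50.6 with anastrozole, 54.8, 58.3 and 56.0 with E2 and 48.0, 50.04 and 48.7 with the combination. E2 lay above all other groups.

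Of the nucleotide genes, RRM2 (chr2:10260825-10351851, forward strand), the small subunit of ribonucleotide reductase whose level varies with the cell cycle, had 234, 243 and 234 CPM with vehicle, 227, 231 and 227 with anastrozole, 250.1, 258 and 257 with E2 and 247, 242 and 237 with the combination. Anastrozole lay below every other group and E2 above every other. RRM1 (chr11:4115937-4160162, forward strand) had 188, 187 and 194 CPM with vehicle, 200.2, 199.8 and 194 with anastrozole, 211, 211 and 215 with E2 and 195, 189.9 and 203 with the combination. E2 again lay above all other groups, while anastrozole and the combination overlapped vehicle. TK1 (chr17:76170172-76183314, reverse strand), which phosphorylates thymidine for reuse, had 223, 217 and 218 CPM with vehicle, 187, 197 and 201 with anastrozole, 203, 195 and 202 with E2 and 209.6, 205 and 209 with the combination. All treated libraries lay below vehicle and the combination above both single treatments. TYMS, which makes thymidylate, had group means of 56.2 to 61.4 CPM, and ENOSF1, transcribed the other way, shares 39.9% of its exon bases.

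**Figure D3:**
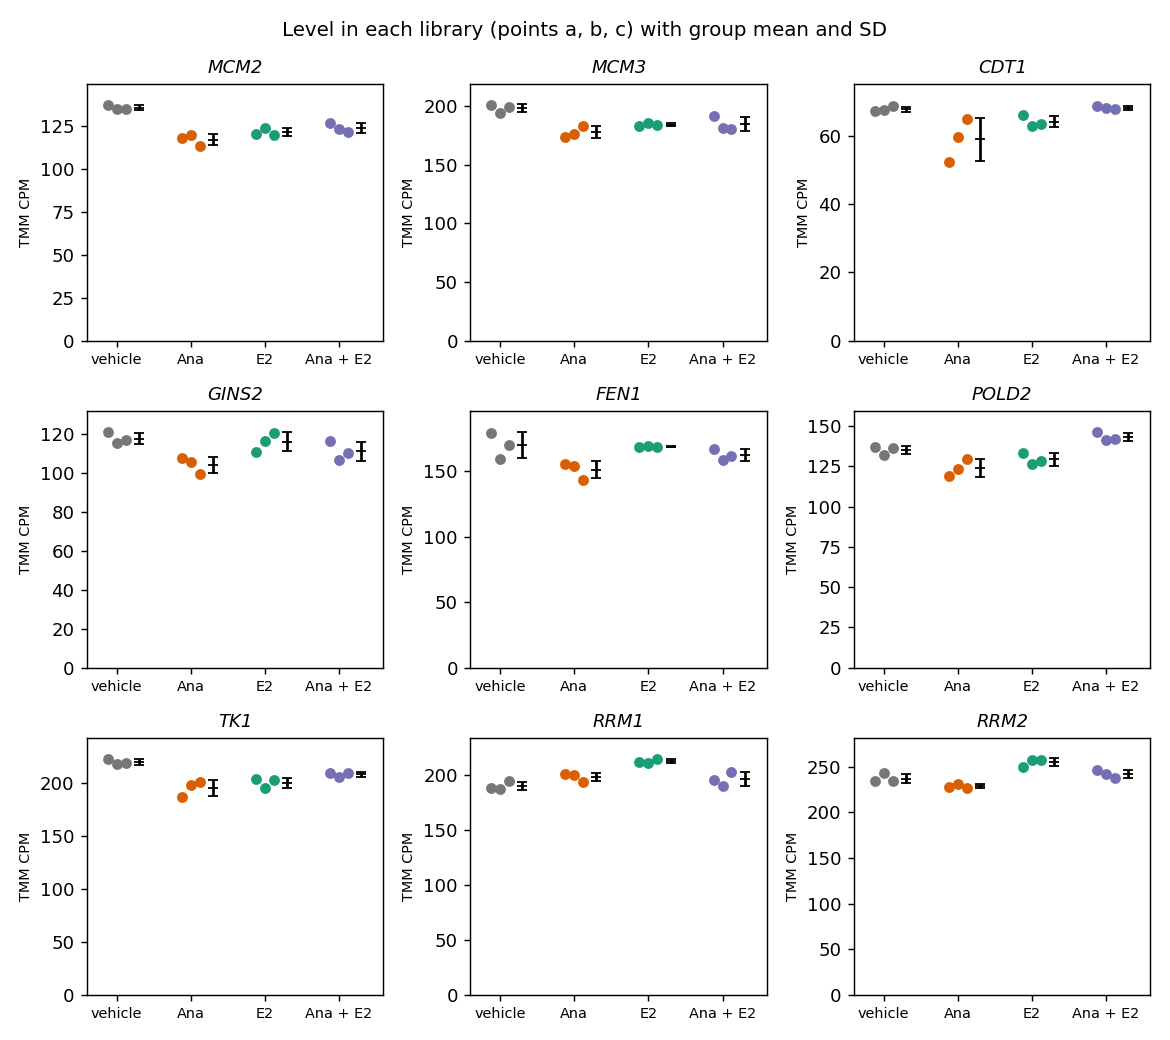
TMM CPM of 9 of the genes in each of the 12 libraries (points in the order a, b, c), with the mean and SD of the 3 libraries of each group beside them, on axes that start at 0. With anastrozole (Ana) MCM2, FEN1 and RRM2 lie below every other group, and with E2 RRM1 and RRM2 lie above every other group.

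Anastrozole against vehicle asks how these genes differ with anastrozole when no estrogen is added. The 6 genes that passed the threshold of 0.05, an adjusted p over 21132 genes from edgeR's quasi-likelihood test, were all lower with anastrozole. They were MCM2 and MCM3 of the helicase ring, CDT1 and GINS2 of the origin genes, FEN1 and TK1, with folds of 0.862 to 0.897. Over all genes tested 3.67% were called, and 7.26% of the 9545 genes at or above the lowest level of the 46 genes. In all, 31 of the 46 had a negative log2 fold change, with a median of -0.06 against 0 over all genes.
MCM2 changed most by the test, from 136 ± 1.41 CPM (SD, n = 3) to 117 ± 3.11 CPM (log2 fold change -0.21, SE 0.051, edgeR adjusted p = 0.00269). TK1 fell from 219 ± 2.71 to 195 ± 7.20 CPM (-0.17, SE 0.046, edgeR adjusted p = 0.0122). FEN1 fell from 169.9 ± 10.0 to 151 ± 6.44 CPM (-0.17, SE 0.048, edgeR adjusted p = 0.0227). The log2 fold change of CDT1 was -0.21 (SE 0.061, edgeR adjusted p = 0.0307), that of GINS2 -0.17 (SE 0.052, adjusted p = 0.0312) and that of MCM3 -0.16 (SE 0.047, adjusted p = 0.0314). The genes of the polymerases and primase gave 0 calls of 9 (3 at an unadjusted p under 0.05), as did those of the clamp, loader and RPA (2 at an unadjusted p), and DESeq2 and limma-voom also gave 0 in both. The 95% intervals of the 40 genes not called ran from a fold of 0.779 to 1.30.
After the GC offset 7 genes were lower and none higher, where 2.89% of all genes were called, and 4 of the 6 kept their call, namely MCM2 (-0.15, edgeR adjusted p = 0.0161), MCM3 (-0.14, 0.0119), GINS2 (-0.15, 0.0212) and FEN1 (-0.12, 0.0459). MCM4, ORC4 and PCNA were added. CDT1 (-0.07, edgeR adjusted p = 0.645) and TK1 (-0.05, adjusted p = 0.578), whose exons are 64.3% and 62.1% GC, were not called. Without vehicle a, vehicle c or anastrozole b only MCM2 was called, and without anastrozole a 3 genes were. DESeq2 called 2 of the 46 and 238 genes in all, and limma-voom 0 of the 46 (17 at an unadjusted p under 0.05) and 15 in all. CDT1 rested on anastrozole a, without which its log2 fold change was -0.12 (edgeR adjusted p = 0.548).

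E2 against vehicle asks what estradiol does to the same genes. Here 15 genes passed by edgeR (5 by DESeq2 and 6 by limma-voom), 8 higher and 7 lower. EdgeR called 12.0% of all genes tested and 23.6% of those at or above the lowest level of the 46 genes. In all, DESeq2 called 1433 genes and limma-voom 1379, against 2537 by edgeR. Higher were both subunits of ribonucleotide reductase, RRM1 and RRM2, the loader subunits RFC1 and RFC3, MCM10, PRIM1, RPA3 and DNA2. Lower were the ring subunits MCM2, MCM3 and MCM5, the polymerase catalytic subunits POLE and POLD1, RNASEH2A and TK1. Folds of the 46 genes lay between 0.857 and 1.13, and 28 of the 46 had a positive log2 fold change (median 0.03 against 0 over all genes).
RRM1 rose from 189.8 ± 3.85 CPM (SD, n = 3) to 212 ± 2.02 CPM (log2 fold change 0.16, SE 0.036, edgeR adjusted p = 0.000222). RFC1 rose from 132 ± 4.801 to 149 ± 3.39 CPM (0.17, SE 0.040, edgeR adjusted p = 0.000321). RRM2 rose by a log2 fold change of 0.11 (SE 0.035, edgeR adjusted p = 0.0228). MCM2 fell from 136 ± 1.41 to 121 ± 2.32 CPM (-0.16, SE 0.041, edgeR adjusted p = 0.00167). RNASEH2A fell from 48.3 ± 2.56 to 41.4 ± 3.07 CPM (-0.22, SE 0.059, edgeR adjusted p = 0.003). TK1 fell from 219 ± 2.71 to 200.1 ± 4.65 CPM (-0.13, SE 0.036, edgeR adjusted p = 0.00315). The other 9 calls had adjusted p between 0.0244 and 0.036 by edgeR. The 13 origin genes gave 0 calls with edgeR, DESeq2 and limma-voom, and 0 of them had an unadjusted edgeR p under 0.05, with log2 fold changes from -0.08 to 0.11.
The exons of the higher genes were 37.8% to 48.8% GC and those of the lower genes 50.6% to 64.8%. Under the GC offset RRM1 (0.11, edgeR adjusted p = 0.0136), RFC1 (0.11, 0.0318) and RRM2 (0.11, 0.00955) kept their call, MCM4 (-0.10, 0.0183) and ORC4 (-0.14, 0.00763) were added as lower, and no others passed, where 7.57% of all genes did. TK1 then had a log2 fold change of -0.01. Without vehicle a 9 genes were called, without vehicle b 14, without vehicle c or E2 a 8, and without E2 b or c 7, with MCM2, RFC1 and RRM1 called in all 6 of these fits. Without E2 a the log2 fold change of MCM5 moved from -0.20 to -0.13 (edgeR adjusted p = 0.313). Without vehicle a that of DNA2 moved from 0.16 to 0.10 (edgeR adjusted p = 0.356). With the library letter as a block edgeR called 9 of the 46 and 2207 genes in all. RRM2, MCM3, POLE, POLD1, RPA3 and DNA2 then lost their call. DESeq2 did not call RRM2 either.

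The combination against vehicle gave 2 calls, where 5.04% of all genes tested were called and 8.96% of those at or above the lowest level of the 46 genes. Both were MCM ring subunits and both were lower, MCM4 from 323 ± 4.11 to 298 ± 2.97 CPM (SD, n = 3; log2 fold change -0.12, SE 0.035, edgeR adjusted p = 0.0242) and MCM2 from 136 ± 1.41 to 124 ± 2.82 CPM (-0.13, SE 0.042, edgeR adjusted p = 0.0336). The next by adjusted p was MCM3, at -0.10 (edgeR adjusted p = 0.108). The median over the 46 genes was -0.02, and 27 were negative. This comparison had little relation to GC content (rho -0.03 across 10848 genes, -0.30 across the 46), and with the GC offset, under which 6.03% of all genes were called, the same 2 genes passed, MCM4 at -0.12 (edgeR adjusted p = 0.00655) and MCM2 at -0.13 (adjusted p = 0.0219). The 44 other genes had 95% intervals between -0.30 and 0.32 on the log2 scale. Without vehicle c, or without replicate b or c of the combination, edgeR called 0 genes, while 7, 6 and 4 had an unadjusted p under 0.05, and without vehicle a or vehicle b it called 1. DESeq2 and limma-voom on all 6 libraries each called 1 of the 46, and 463 and 347 genes in all.

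**Figure D4:**
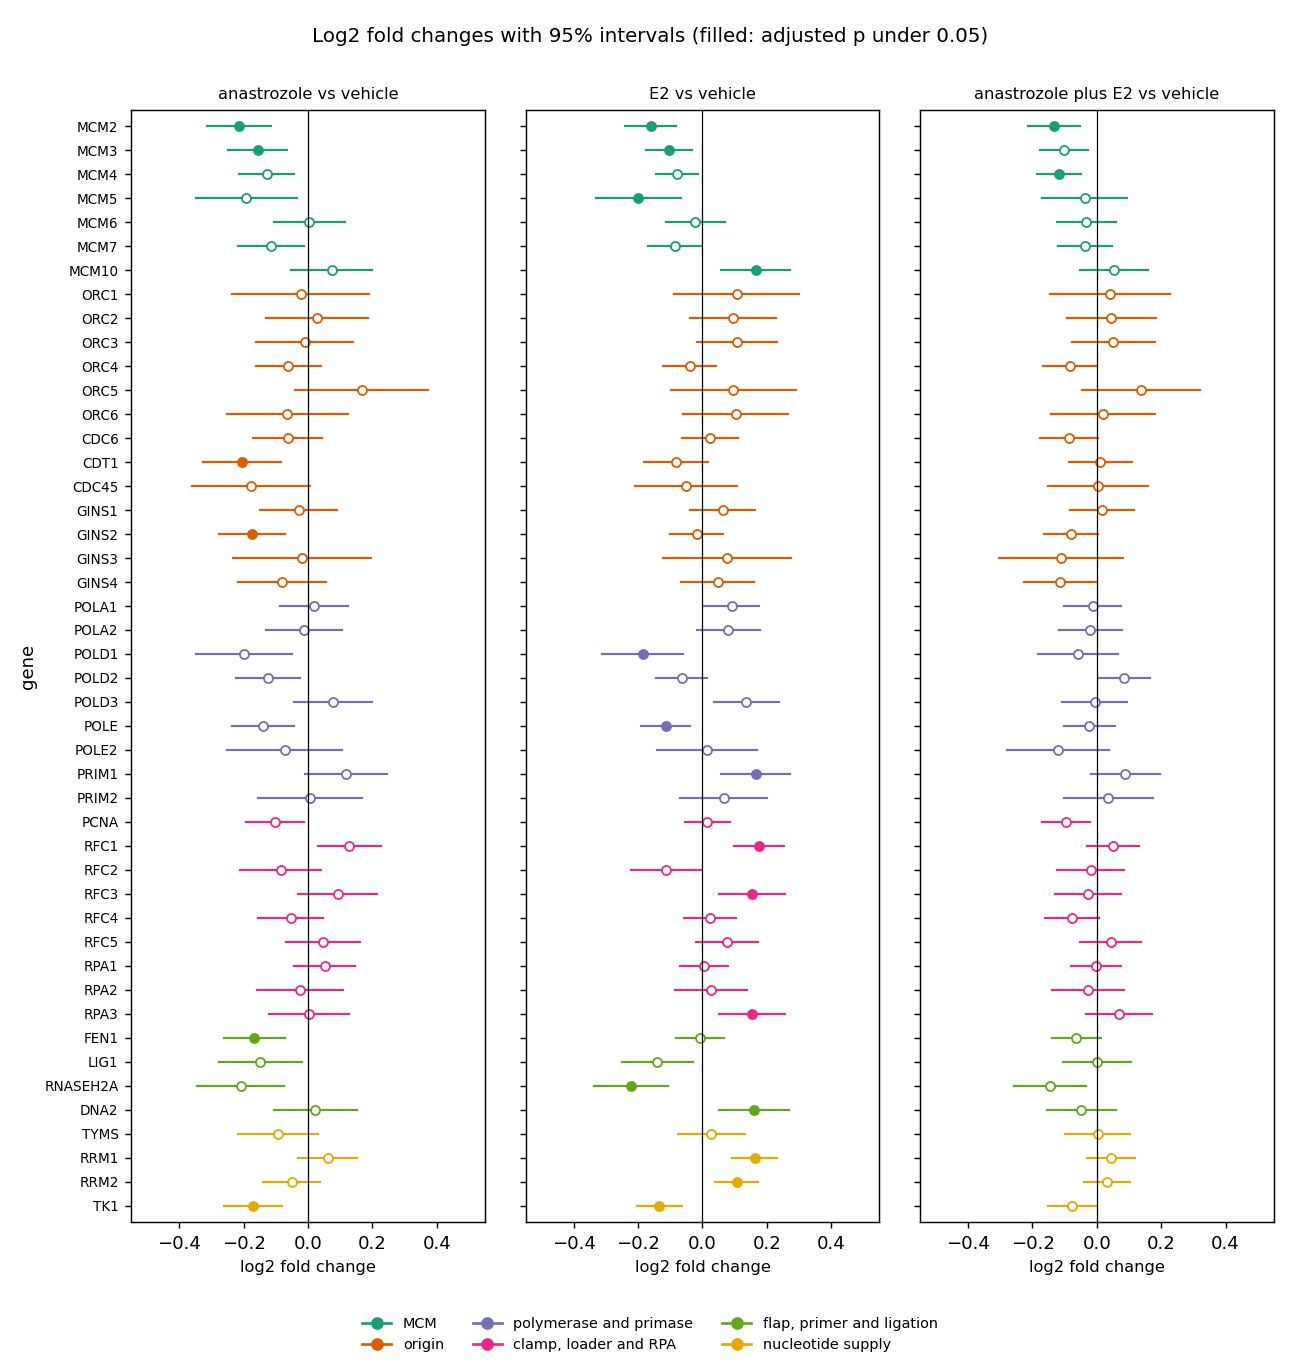
Log2 fold changes of the 46 genes for each treatment against vehicle, with 95% intervals from edgeR. Filled symbols passed an adjusted p of 0.05, 6 with anastrozole, 15 with E2 and 2 with the combination, and the MCM ring genes other than MCM6 lie to the left of 0 in all 3 panels.

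The treatments were then compared with each other. Because each group serves in several comparisons, these results share libraries. Between anastrozole and E2, 2 genes were lower with anastrozole, where 1.33% of all genes were called and 2.61% of those at or above the lowest level of the 46 genes. RRM2 stood at 229 ± 2.28 against 255 ± 4.13 CPM (log2 fold change -0.15, SE 0.040, edgeR adjusted p = 0.0172). FEN1 stood at 151 ± 6.44 against 169 ± 0.673 CPM (-0.15, SE 0.043, edgeR adjusted p = 0.0288). The direction was the same in 40 of the 46 genes (median -0.06 against 0 over all genes). All 9 polymerase and primase genes and all 4 nucleotide genes were lower in value with anastrozole. Of these, 0 and 2 had an unadjusted edgeR p under 0.05, and the polymerase and primase values ran only from -0.09 to -0.01. All genes share the same 6 libraries, so their directions are not independent. This contrast was nearly free of the relation to GC content, with rho of 0.11 across all genes and across the 46. When the GC offset was applied, RRM2 (-0.16, edgeR adjusted p = 0.00031), FEN1 (-0.16, 0.000669) and GINS2 (-0.16, 0.00629) were called, as were 2.34% of all genes. DESeq2 called 107 genes in all and limma-voom 70. Of the 46 genes they called 0, with 5 and 8 at an unadjusted p under 0.05. So did edgeR without anastrozole b or without any of the E2 libraries, with 6 or 7 at an unadjusted p, while without anastrozole a it called 5 and without anastrozole c 1. With the library letter as a block edgeR called 0 of the 46 as well (7 at an unadjusted p under 0.05), and 180 genes in all.

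The combination was compared with each agent alone. Against E2 alone 6 genes passed, where 6.74% of all genes did and 14% of those at or above the lowest level of the 46 genes. POLD2 was higher with the combination (0.15, SE 0.037, edgeR adjusted p = 0.00201). DNA2 was lower (-0.21, SE 0.054, edgeR adjusted p = 0.00482), as were RFC3 (-0.18, SE 0.049, adjusted p = 0.00835) and RFC1 (-0.13, SE 0.036, adjusted p = 0.0135). RRM1 was lower too (-0.12, SE 0.034, edgeR adjusted p = 0.0135), and so was PCNA (-0.11, SE 0.034, adjusted p = 0.0212). Here rho with GC content was 0.69 across all genes, and with the GC offset edgeR called 0 of the 46 (11 at an unadjusted p under 0.05), while 0.937% of all genes passed. Without replicate b of the combination 3 were called, and limma-voom on all 6 libraries called 2 of the 46 and 451 genes in all. Against anastrozole alone 2 genes passed and both were higher, where 2.90% of all genes did and 5.67% of those at that level. POLD2 was 0.21 (SE 0.047, edgeR adjusted p = 0.00122) and CDT1 0.21 (SE 0.060, adjusted p = 0.0208). POLD2 kept its call with the GC offset, under which 2.01% of all genes passed (0.16, edgeR adjusted p = 0.00558) while CDT1 did not (0.10, adjusted p = 0.536). POLD2 was called in all 6 fits that each left out a library, and in 5 of those fits CDT1 was not. Without anastrozole a CDT1 had 0.13 (edgeR adjusted p = 0.424). DESeq2 called 1 of the 46 in this comparison and limma-voom 0 (9 at an unadjusted p under 0.05). In all they called 236 and 90 genes.

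The interaction term of the fit to all 12 libraries asks whether the effects of the agents add on the log scale. It passed for 14 of the 46 genes, where 10.9% of all genes passed and 22.1% of those at or above the lowest level of the 46 genes. In 10 genes the term was positive, so the combination stood higher than the sum of the single effects, and in 4 it was negative. The positive ones were MCM2, MCM3, MCM5, CDT1, POLD1, POLD2, POLE, LIG1, RNASEH2A and TK1, and the negative ones RFC1, RFC3, POLD3 and RRM1. POLD2 had the smallest p (0.27, SE 0.061, edgeR adjusted p = 0.00036). RFC1 followed (-0.25, SE 0.061, edgeR adjusted p = 0.000944), and then TK1 (0.23, SE 0.056, adjusted p = 0.0015) and CDT1 (0.30, SE 0.075, adjusted p = 0.00193). MCM2 had 0.24 (SE 0.062, edgeR adjusted p = 0.00259) and POLE 0.23 (SE 0.060, adjusted p = 0.00268). In MCM5, LIG1 and CDT1 both single treatments lay below vehicle in all libraries while the combination overlapped it.
The term followed GC content, with rho of 0.71 across 10848 genes and 0.78 across the 46. With the GC offset it passed for 1 of the 46, ORC4 (0.19, edgeR adjusted p = 0.0287), and for 2.62% of all genes. Then POLD2 had 0.15 (edgeR adjusted p = 0.0896), RFC1 -0.14 (adjusted p = 0.119) and MCM2 0.11 (adjusted p = 0.34). Leaving out vehicle a, anastrozole b or replicate b of the combination gave 9 calls each.

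**Figure D5:**
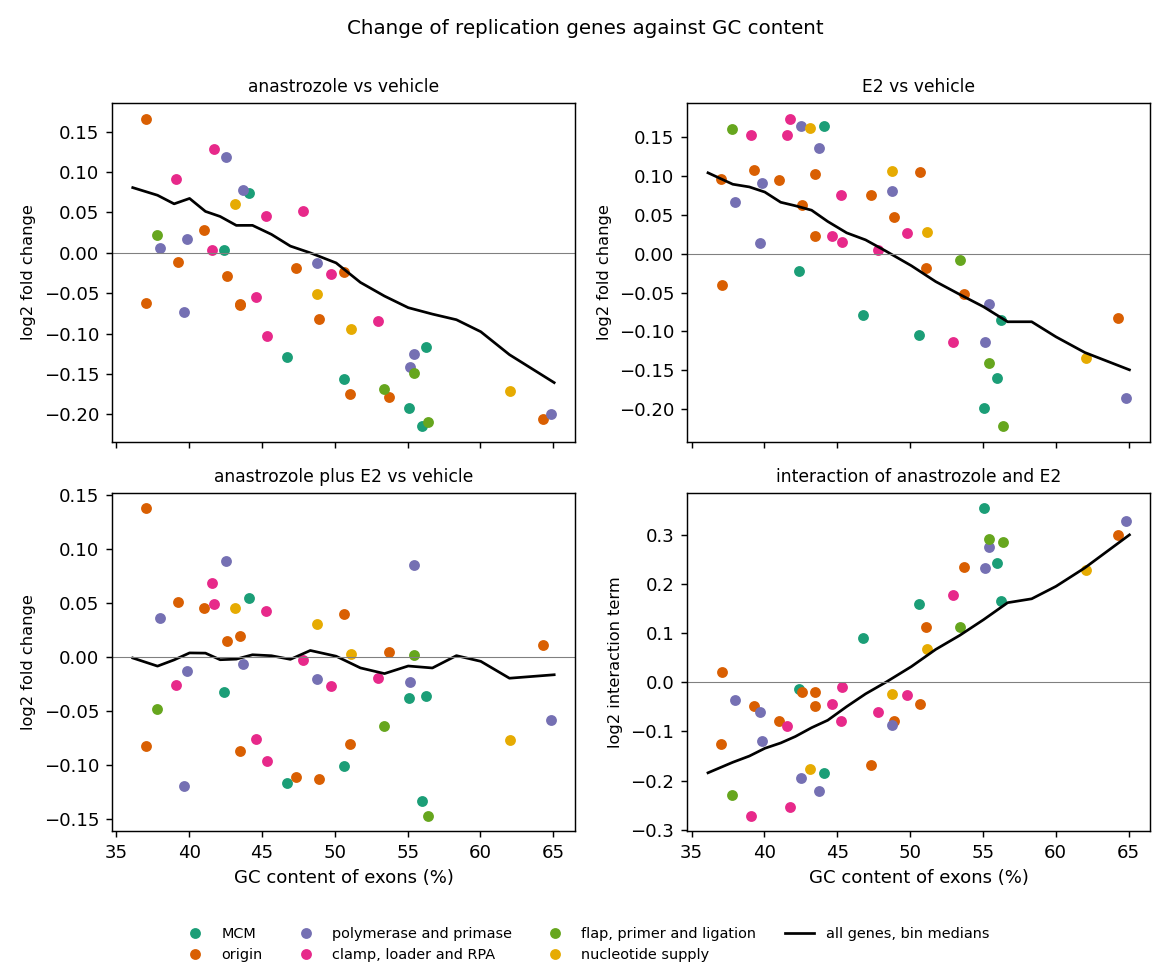
Log2 fold change (interaction term in the last panel) of the 46 genes against the GC content of their exons in percent, coloured by subgroup, with the median of all genes with at least 3 log2 CPM in 20 bins of GC content as a line. The genes span 37% to 64.8% GC and slope down with anastrozole and with E2, show little slope for the combination, and slope up for the interaction.

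The exons of the 46 genes were 37% to 64.8% GC, with a median of 47% against 47.6% over all genes at 3 log2 CPM or more. Across the 46, rho between change and GC content was -0.79 for anastrozole and -0.72 for E2, as a description, since all genes share the 12 libraries. At equal GC content, the points of MCM2, MCM3, MCM4, FEN1 and GINS2 lay below the median of all genes in the panel for anastrozole. All of them are among the 7 genes called with the GC offset, so this is no separate evidence. Nor was it particular to them, since the median of the 46 with the offset was -0.06. RNASEH2A and MCM5, not called, then had -0.14 and -0.13, while others lay above 0, such as RFC1 at 0.08. Genes with an E2F motif in the window had a median log2 fold change of -0.08 with anastrozole (15 of 18 negative), and those without it -0.05 (12 of 21 negative). With the GC offset these medians were -0.07 and -0.05. With E2 they were 0.01 and 0.07, and with the GC offset -0.0026 and 0.0015. The difference between genes with and without the motif was not tested.

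Other genes of the same pathways were counted from lists. Of 32 other replication genes, such as checkpoint, chromatin assembly and topoisomerase genes, 3 passed with anastrozole (1 higher, 2 lower), 9 with E2 (4 higher, 5 lower) and 1 with the combination. Over all genes at or above the lowest level of the 46, the shares called in these comparisons were 7.26%, 23.6% and 8.96%. TOP2A, a topoisomerase that untangles chromosomes, was higher with E2 (log2 fold change 0.22, SE 0.028, edgeR adjusted p = 2.43e-12), with anastrozole (0.13, SE 0.040, adjusted p = 0.0469) and with the combination (0.14, SE 0.031, adjusted p = 0.000752). UHRF1, which couples DNA methylation to replication, was lower with E2 (-0.21, SE 0.048, edgeR adjusted p = 0.000288), and DBF4, the activator of the kinase that fires origins, was higher (0.27, SE 0.063, adjusted p = 0.000451). CHAF1A, the large subunit of chromatin assembly factor 1, was lower with anastrozole (-0.27, SE 0.078, edgeR adjusted p = 0.0213). The medians of this list were -0.04, 0.03 and -0.04 for the 3 treatments against vehicle.
Of 31 other nucleotide synthesis genes, 5 passed with anastrozole (2 higher, 3 lower), 10 with E2 (7 higher, 3 lower) and 2, both lower, with the combination. MTHFD2, a mitochondrial enzyme of folate metabolism, was higher with E2 (0.24, SE 0.036, edgeR adjusted p = 2.28e-09), as was RRM2B, the alternative small subunit of ribonucleotide reductase (0.29, SE 0.045, adjusted p = 9.97e-09). APRT, which salvages adenine, was lower with anastrozole (-0.29, SE 0.051, edgeR adjusted p = 1.1e-05) and with E2 (-0.25, SE 0.041, adjusted p = 3.99e-08). NME1, a nucleoside diphosphate kinase, was lower with anastrozole (-0.47, SE 0.099, edgeR adjusted p = 0.00052) and had an interaction term of 0.83 (SE 0.125, adjusted p = 2.29e-08). The medians were -0.06, -0.01 and -0.02. In edgeR with the GC offset 3 of these nucleotide genes passed for anastrozole (all lower), 6 for E2 (4 higher, 2 lower) and 4 for the combination (2 higher, 2 lower). Of the other replication genes 0 (10 at an unadjusted p under 0.05), 3 (2 higher, 1 lower) and 1 (higher) passed. For anastrozole, E2 and the combination in this order, DESeq2 called 1, 5 and 1 of the other replication genes, and limma-voom 0, 5 and 0. Of the other nucleotide synthesis genes DESeq2 called 1, 6 and 0, and limma-voom 0, 6 and 0. Where these tools called 0, between 6 and 10 genes of the list had an unadjusted p under 0.05.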

How the data were processed

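RNA-seq of T47D cells was analysed in 12 libraries, grouped by the treatment and letter in the sample labels. Per the methods of the study and the submitters' processing notes, the authors used TopHat 2.0.14 (with bowtie 2.2.6) for alignment to hg19 and htseq-count for gene counts, which they deposited raw. The counter's strand setting and annotation are not given in the sources used here, nor what the letters share. The labels name polyA RNA, the extraction protocol total RNA. Lines for reads outside single genes (5) were left out, and genes held 32.7% to 33.5% of the table.

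Genes at 0 in all libraries (4238) were removed. Each comparison was fitted on its 6 libraries, and the interaction on 12, with edgeR 4.0.16 in R 4.3.3 (TMM, robust quasi-likelihood F test, Benjamini-Hochberg over 21132 genes, 2-sided, threshold 0.05). SEs are the absolute log2 fold change over the square root of F. The code was tested on simulated data. Alternatives were DESeq2's size factors, filterByExpr, DESeq2 1.42.0, limma-voom (limma 3.58.1), all 12 libraries in 1 fit, the letter as a block, leaving out each library and, added after seeing the data, a GC offset (lowess of span 0.5 over genes of at least 3 log2 CPM). Positions and exon GC content came from GENCODE mapped to GRCh37. By rule, values in all 12 libraries are given for the 20 genes with the smallest adjusted p over the 7 comparisons. They are also given for the highest gene of each subgroup. Fold changes from the main fits are described for at most 6 of the 46 genes per comparison. Further fold changes are given where an alternative fit lost or added a call, and for the flagged interaction terms. The 46 genes, both other lists and the rule were chosen with earlier results of these data known.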

Additional observations from a re-analysis of the deposited data

Results flagged for a closer look

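The effect of anastrozole in the presence of E2 differed from its effect without E2 in 14 of the 46 genes by the interaction term of edgeR's quasi-likelihood fit to all 12 libraries, against 10.9% of all genes tested and 22.1% of those at or above the lowest level of the 46 genes. The term, a difference between log2 fold changes, was positive for MCM2 (0.24), MCM3 (0.16) and MCM5 (0.35) of the helicase ring and for the licensing factor CDT1 (0.30). It was positive for POLD1 (0.33) and POLD2 (0.27) of polymerase δ, for POLE (0.23), for LIG1 (0.29) and RNASEH2A (0.29), and for TK1 (0.23). It was negative for POLD3 (-0.22), RFC1 (-0.25), RFC3 (-0.27) and RRM1 (-0.18). The exons of the genes with a positive term were richer in GC than those with a negative term, from 50.6% to 64.8% against 39.1% to 43.7%. With each library's trend on GC content removed, 0 of these 14 kept the call (edgeR), and MCM5 had the largest term of them (0.24, edgeR adjusted p = 0.223).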

How the results depend on the processing

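The counts of called genes with anastrozole, E2, the combination, anastrozole against E2, the combination against E2 and against anastrozole, and the interaction were 6, 15, 2, 2, 6, 2 and 14. Over all genes the counts in the same order were 776, 2537, 1065, 280, 1424, 612 and 2295 by edgeR. They were 238, 1433, 463, 107, 647, 236 and 1587 by the DESeq2 test. Limma-voom gave 15, 1379, 347, 70, 451, 90 and 1539 over all genes. Of the counts among the 46, DESeq2's size factors in edgeR moved none by over 1.5 times. FilterByExpr gave 3 with anastrozole, 1 for anastrozole against E2 and 1 for the combination against anastrozole. The DESeq2 test gave 2 with anastrozole, 5 with E2, 1 with the combination, 0 for anastrozole against E2 (5 at an unadjusted p under 0.05) and 1 for the combination against anastrozole. Limma-voom gave 0 with anastrozole, 6 with E2, 1 with the combination, 0 for anastrozole against E2, 2 for the combination against E2 and 0 against anastrozole, with 17, 8 and 9 at an unadjusted p under 0.05 where it gave 0. All 12 libraries in 1 fit gave 9 with E2, 1 with the combination and 3 for the combination against E2. The GC offset gave 5 with E2, 0 for the combination against E2 (11 at an unadjusted p), 1 against anastrozole and 1 for the interaction. With the GC offset and replicate block these were 5, 0, 1 and 1, and the combination against vehicle gave 4. The interaction term of TK1 changed sign to -0.0003256 with the GC offset and to -0.0003393 with the GC offset and replicate block. The causes were not tested.

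What libraries with the same letter share is not given in the sources used here, and their deviations from the group means correlated between -0.193 and 0.182. With the replicate block 9 genes were called with E2, 4 with the combination and 0 for anastrozole against E2 (7 at an unadjusted p under 0.05). Over all genes the block gave 2207, 1439 and 180 calls in these comparisons. Among the 46, the other counts stayed within 1.5 times.

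Leaving out each library in turn gave 1 to 9 calls with anastrozole, 7 to 14 with E2, 0 to 3 with the combination, 0 to 5 for anastrozole against E2, 3 to 8 for the combination against E2, 1 to 3 against anastrozole and 9 to 17 for the interaction. Of 366 checks of a called gene in these fits 237 kept the call, 129 lost it and 0 changed sign. RRM1 and RFC1 with E2 were called under every alternative run, and MCM2 with anastrozole under every one but limma-voom. With 3 libraries per group, the median SE of a log2 fold change was 0.051 to 0.061 against vehicle, and this precision limits what could be called.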
